A study of Mus musculus with 1528 samples.

Results

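Among macrophages given TNF together with IL4 and IL13, 143 cells still expressed both *Clec10a* and *Mgl2* at 100 CPM or more, where CPM is a gene's count scaled to 1000000 gene fragments of the cell. The cells were chosen by these 2 measured levels. These kept cells were 143 of the 718 TNF-treated cells that passed the quality filter and of the 1439 cells that passed it in the whole dataset. A cell passed with at least 200000 gene fragments, at least 5000 genes detected and at most 10% mitochondrial fragments. The cells they were compared with, called lost cells, were the 340 TNF-treated cells with both genes under 100 CPM. Between the 2 classes lay 182 cells with *Mgl2* only and 53 cells with *Clec10a* only.

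The cells were bone marrow-derived macrophages (BMDMs) of male wild-type C57BL/6 mice, grown in culture with M-CSF (CSF1). All cells received IL4 and IL13 for 24 h, and the TNF group received TNF at the same time, each cytokine at 10 ng/ml. The cells came from 2 mice, and each mouse gave 2 plates that carried both treatments, plates 2 and 3 for mouse 1 and plates 4 and 5 for mouse 2. IL4+IL13 cells lay in plate rows A to H and TNF cells in rows I to P. Position on the plate therefore cannot be told apart from treatment. Live single cells were sorted into wells without a marker gate and sequenced with Smart-seq2, which reads whole transcripts and uses no molecular identifiers. The age of these mice was not given in the sources used here. Since cells of a mouse share the animal and the culture, tests were run on fragments summed over the cells of a class in each mouse (n = 2), and plates of 1 mouse are technical repeats of that animal.

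*Clec10a* and *Mgl2* encode the paralogous C-type lectins CD301a and CD301b, surface receptors that bind galactose and N-acetylgalactosamine sugars and serve as markers of alternative (M2) activation. IL4 and IL13 act through receptors that share the IL4Rα chain and activate the transcription factor STAT6, which turns on M2 genes. TNF binds TNFR1 and TNFR2 and activates NF-κB and MAP kinase signalling, and in this study it was asked how its effect on M2 genes varies from cell to cell.

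The kept cells were present on every plate. They made up 18.5% of the filtered TNF cells on plate 2 (33 of 178), 15.1% on plate 3 (28 of 185), 22.9% on plate 4 (40 of 175) and 23.3% on plate 5 (42 of 180). By mouse the share was 16.8% in mouse 1 (95% exact binomial interval 13.1 to 21.1%) and 23.1% in mouse 2 (18.8 to 27.8%), a mean of 19.9% ± 4.46 (SD, n = 2), and the intervals of the mice overlapped. In the cells given IL4+IL13 without TNF, the same rule held for 334 of 721 cells, 46.7% and 46.0% by mouse, while 16.8% ± 0.297 (SD, n = 2) were low for both genes against 47.3% ± 4.77 with TNF. Cells with *Mgl2* only made up similar shares in both treatments, 24.1% ± 2.99 without TNF and 25.3% ± 2.75 with it (SD, n = 2). Shares by class are a description, with no test, because the rule itself sets them.

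**Figure D1:**
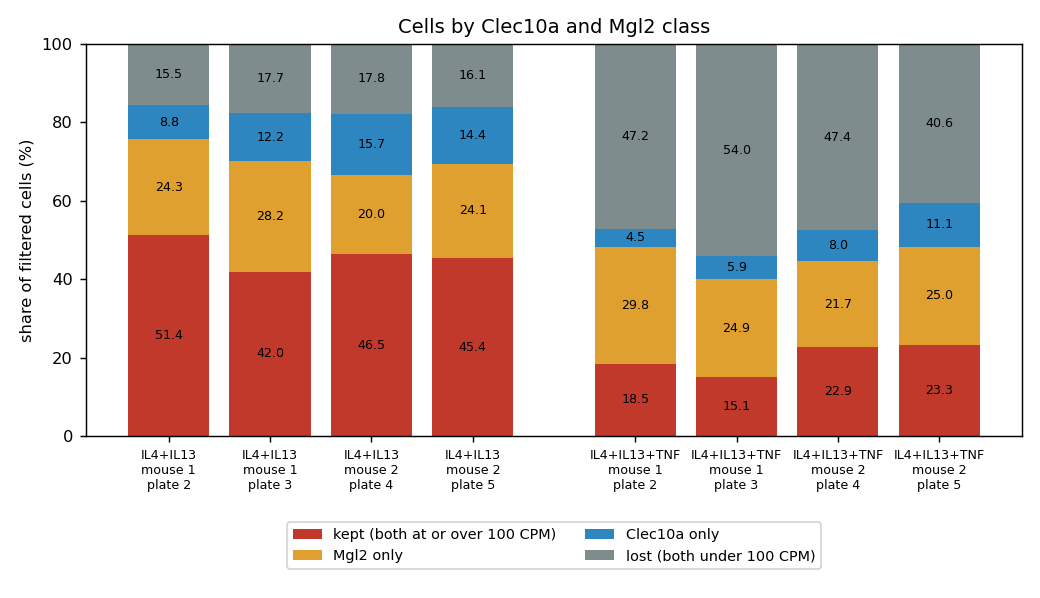
Share of filtered cells (%) in each of the 4 *Clec10a* and *Mgl2* classes, as stacked bars for each plate and treatment; numbers in the bars are percentages. Kept cells take 15.1 to 23.3% of the bars with TNF and 42.0 to 51.4% of those without it.

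In kept cells the 2 genes differed in level and spread. The median *Clec10a* level was 211 CPM on plate 2, 218 CPM on plate 3, 215 CPM on plate 4 and 196 CPM on plate 5, and its highest values by plate lay between 944.5 and 1641 CPM. For *Mgl2* the medians were 455, 1048, 1223 and 969.7 CPM in the same order, with highest values of 5019 to 8492 CPM. The *Clec10a* medians thus lay close together, while the *Mgl2* median of plate 2 was below those of the other plates. On mouse sums, *Clec10a* stood at 282 and 351 CPM in kept TNF cells and at 389 and 529 CPM in double-high IL4+IL13 cells, and *Mgl2* at 1346 and 1394 CPM against 1209 and 1022 CPM. By these sums kept cells had less *Clec10a* than their IL4+IL13 counterparts in each mouse and more *Mgl2*. The *Mgl2* medians over cells were 827, 1068, 743.7 and 852 CPM on plates 2 to 5 without TNF, so that on both plates of mouse 1 the median was lower in kept cells. In lost cells the plate medians were at most 3.0 CPM for *Clec10a* and at most 5.5 CPM for *Mgl2*. All of these values were used by the rule and are given without a test.

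The genes lie next to each other on chromosome 11 in the mm10 mouse genome, *Mgl2* (ENSMUSG00000040950) at 70130329 to 70137550 and *Clec10a* (ENSMUSG00000000318) at 70156197 to 70170834, both on the plus strand. Across the TNF cells of a plate, their rank correlation was 0.566 to 0.608 (n = 175 to 185 cells), against 0.367 to 0.417 in IL4+IL13 cells. Within the kept cells it was 0.0805 to 0.250, and within double-high IL4+IL13 cells −0.0032 to 0.153. In both of these classes the rule leaves out all lower values, and a narrowed range by itself can lower a correlation. These correlations are across cells that share a plate, a culture and a mouse, and the first range includes cells at or near 0 for both genes. Of the TNF cells with *Clec10a* over the cut, 67.7 to 80.5% by plate were also over it for *Mgl2*, against 40.0 to 48.3% of all TNF cells. In IL4+IL13 cells the same shares were 74.8 to 85.3% and 66.5 to 75.7%. Since the genes are paralogs, fragments that fit both would have been dropped as not unique, and the deposited counts do not show how many these were. Over 9 of the 12 listed neighbours on chromosome 11 that could be tested, the median kept-minus-lost difference was 0.005 on the log2 scale, with 1 gene higher and 1 lower on all 4 plates.

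**Figure D2:**
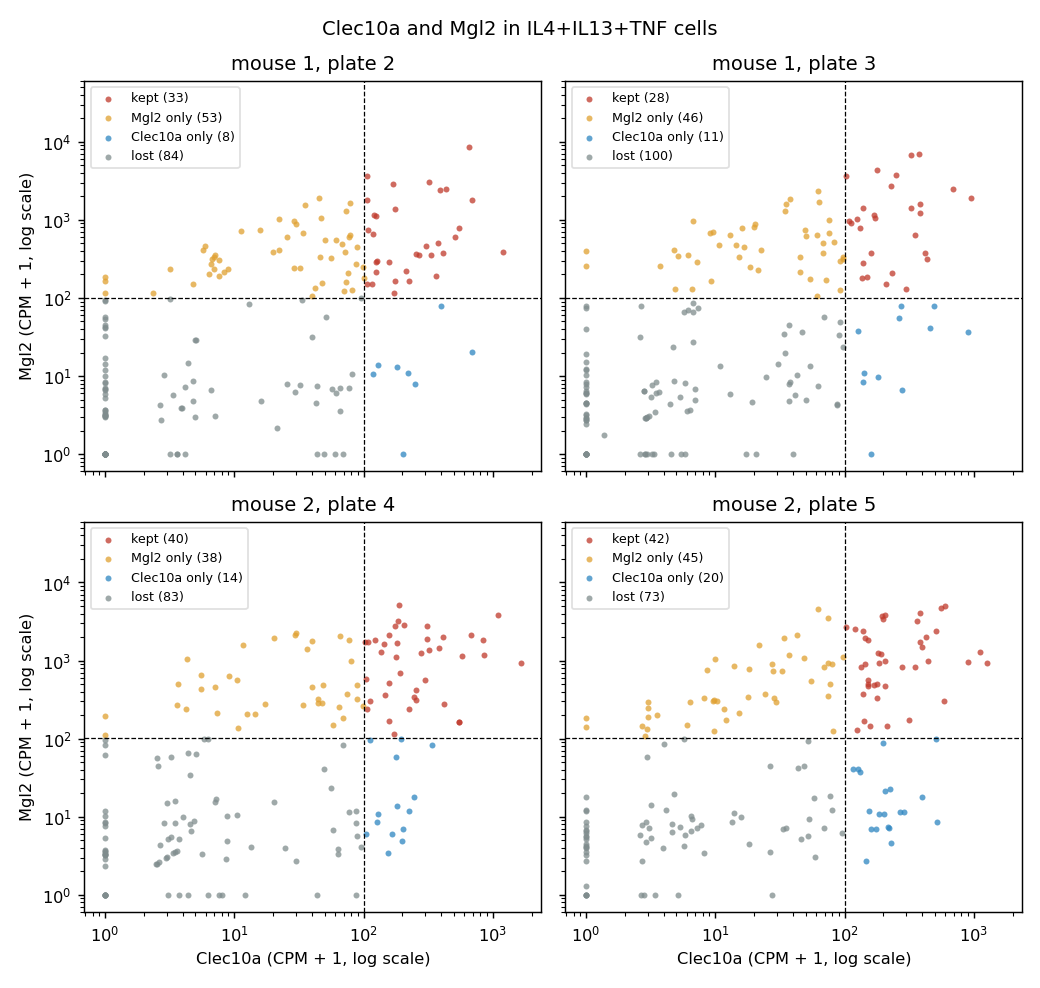
*Clec10a* (x axis) and *Mgl2* (y axis) in each TNF-treated cell that passed the filter, in CPM + 1 on log scales, with a panel for each plate; dashed lines mark 100 CPM and the legend gives the cells per class. The 143 kept cells (red, upper right) continue across the cut into the *Mgl2*-only cells to their left.

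The cut fell in a continuous range. The kept cells just inside it had 101.4, 101.5 and 101.8 CPM for the lower of the 2 genes, and the cells just outside had 98.6, 98.7 and 99.7 CPM. In 18 kept cells the lower gene was between 100 and 120 CPM, and 20 TNF cells had it between 80 and 100 CPM. The lower gene had a median of 96 fragments in a kept cell and never under 27. When every cell was thinned to 200000 fragments, 140 of the 143 cells stayed in the class and 0 became lost cells. By plate row, the share of kept cells ran from 10.5% in row M (10 of 95) to 28.0% in row L (26 of 93).

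Kept and lost cells did not differ much in library quality, but they differed in the share of dividing cells. The medians in kept and lost TNF cells were 476800 and 457600 fragments, 8137 and 7854 genes, and 3.19 and 2.91% mitochondrial fragments. Summed over cells, the kept class held 27897219 fragments in mouse 1 and 43286577 in mouse 2, and the lost class 87319637 and 77388949. Cells with at least 20 CPM of *Mki67* or *Top2a*, genes of dividing cells, were 39.3% of kept cells in mouse 1 (24 of 61) and 28.0% in mouse 2 (23 of 82). In lost cells they were 22.3% (41 of 184) and 17.3% (27 of 156). The share in kept cells was above that in lost cells on each plate, with 54.5% on plate 2 and 21.4 to 33.3% on the other plates. It was not highest in kept cells: *Mgl2*-only TNF cells had 45.5% in mouse 1 and 34.9% in mouse 2. *Clec10a*-only TNF cells had 15.8 and 26.5%. Several list medians below are also given without the dividing cells.

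Markers of other cell types were low in the kept cells, and macrophage markers were high. All 12 listed macrophage markers were tested, and their summed level was 37680 and 40090 CPM in kept cells and 46550 and 43120 CPM in lost cells. The 10 neutrophil markers summed to 0.354 and 6.89 CPM, the 7 mast cell and basophil markers to 0.779 and 4.79 CPM and the 7 fibroblast markers to 1.17 and 1.36 CPM in kept cells. *Ly6g*, *Camp*, *Elane*, *Ltf*, *Mcpt8*, *Fcer1a*, *Ms4a2* and *Prss34* were at 0 there. Lymphocyte markers summed to 108 and 164 CPM, nearly all from *Il7r*, and *Cd3g*, *Cd79a*, *Nkg7* and *Ncr1* were at 0. The 12 dendritic cell markers summed to 114 and 146 CPM in kept cells and to 172 and 704 CPM in lost cells, with *Siglech* and *Cd207* at 0 in kept cells.

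The mouse 2 value in lost cells came with a few cells high in *Ccr7*, the chemokine receptor of migrating dendritic cells. *Ccr7* was at or over 100 CPM in 12 cells of the dataset, and all 12 were lost TNF cells, 1 of mouse 1 and 11 of mouse 2. In 11 of them *Aldh1a2*, which makes retinoic acid, and *Ccl22* were also over 100 CPM, while the macrophage genes *Adgre1* and *Csf1r* were over it in 1 cell each. The macrophage gene *Lyz2* reached 100 CPM in all 12 and the dendritic cell gene *Zbtb46* in 2. *Ccr7* measured 0.283 and 0.945 CPM in the kept sums and 40.6 and 459.5 CPM in the lost sums, and *Aldh1a2* 0.0709 and 4.75 against 14.6 and 504 CPM. The kept-minus-lost differences of these genes were thus carried by 12 cells of the comparison class.

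The first question was which other genes went with *Clec10a* and *Mgl2* in TNF-treated cells. Kept cells had more of the M2 receptor gene *Mrc1*, the chemokine genes *Ccl8*, *Ccl12* and *Ccl7*, the complement genes *C1qb* and *C1qc*, the transcription factor gene *Maf* and genes of cell division. They had less *Gpnmb*, *Lpl*, *Lgals3* and other lipid-associated macrophage genes and less of several TNF-response genes such as *Clec4e* and *Ccl9*. With 2 mice, no single gene passed the test: the quasi-likelihood test of edgeR, with p-values adjusted by Benjamini-Hochberg, called 0 of 17574 genes at an adjusted p under 0.05 (0% of genes tested), and the smallest adjusted p was 0.0723. At an unadjusted p under 0.05, 664 genes were higher (3.78%) and 795 lower (4.52%). With library sizes in place of trimmed mean of M-values (TMM) scaling the split was 966 higher and 566 lower, with the median of all genes moved to 0.0840 on the log2 scale. DESeq2, on the same sums, called 508 genes (2.89%), 272 higher and 236 lower, and the edgeR fit with plates in place of mice, which counts plates of 1 animal as replicates, called 82 (0.503%). The direction was the same on all 4 plates for 8.89% of genes on the higher side and 11.3% on the lower, and counts of genes below are to be read against these shares. The 24 gene lists were chosen with earlier results of these data known. Their counts and medians are therefore descriptions and not independent evidence.

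**Figure D3:**
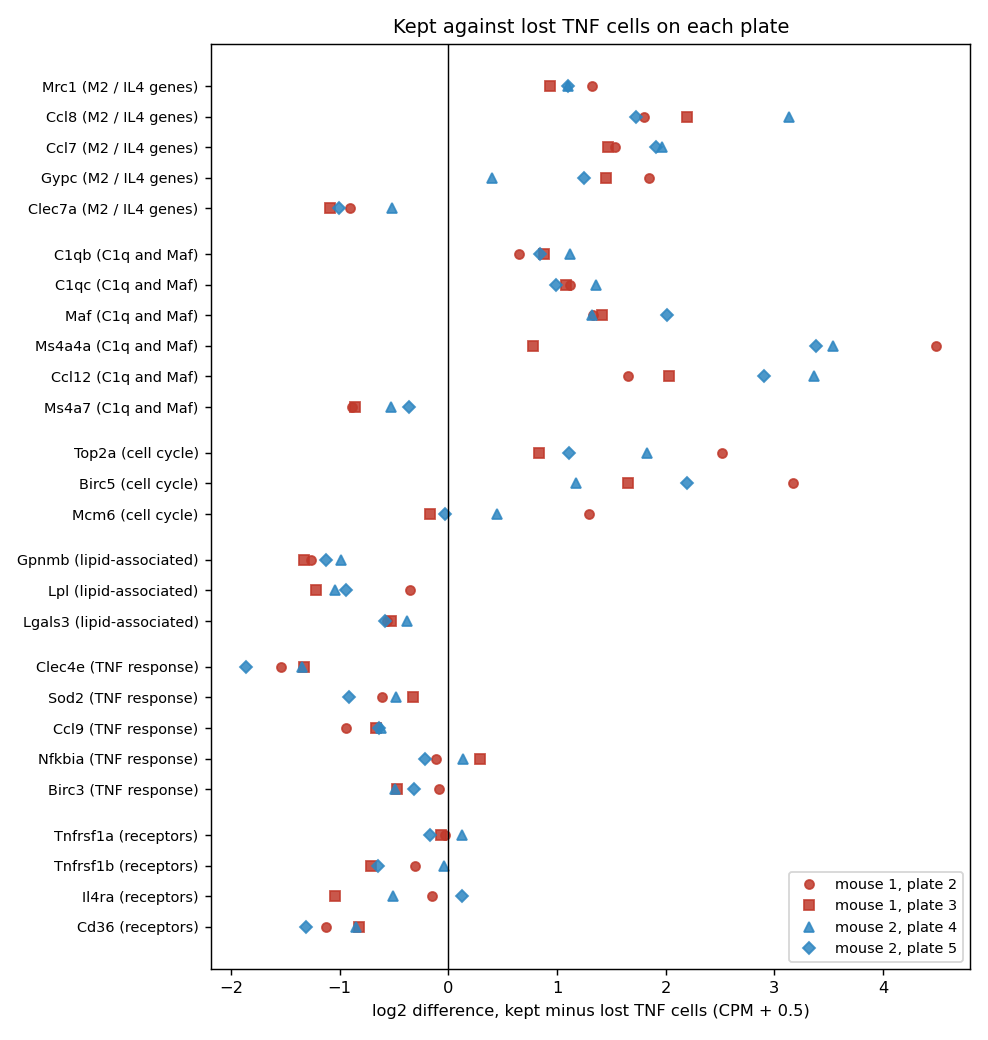
Log2 difference between kept and lost TNF cells on each plate (x axis, from CPM + 0.5), for genes of 6 groups (y axis); red marks are plates of mouse 1 and blue marks plates of mouse 2. *Mrc1*, *Ccl8*, *C1qb* and *Maf* lie above 0 and *Gpnmb*, *Lgals3*, *Clec4e* and *Ccl9* below 0 on all 4 plates.

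*Mrc1*, which encodes the mannose receptor CD206 and is an IL4-induced marker like the genes of the rule, had the smallest standard error of the M2 genes that the study named. It stood at 852 and 1054 CPM in the kept cells of mouse 1 and mouse 2 and at 395 and 487 CPM in the lost cells. Levels by plate were 867.7, 814, 1057 and 1041 CPM in kept cells against 347, 424, 492 and 486 CPM in lost cells. The kept sum was thus above the lost sum on every plate. The log2 difference was 1.11 ± 0.0681 (SE; edgeR adjusted p = 0.0968). *Mrc1* reached 100 CPM in 129 of the 143 kept cells (90.2%).

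The other M2 genes did not move as a block. Of the 18 M2 genes that the study named, 6 were higher and 2 lower in kept cells on all 4 plates, the median log2 difference was 0.54 (0.36 to 0.84 over the 17 alternative settings) against −0.0067 over all genes, and DESeq2 called 5 higher and 1 lower. The study picked some of these genes for their response to TNF in its own samples, so they are not an independent list. *Retnla*, which encodes the secreted M2 protein RELMα, was nearly absent from kept cells: it stood at 0.177 and 23.1 CPM, against 2.31 and 10.6 CPM in lost cells and 60.7 and 815 CPM in double-high IL4+IL13 cells. Only 3 kept cells reached 100 CPM of *Retnla*, all on plate 4. Of double-high IL4+IL13 cells, 8 of 169 in mouse 1 and 27 of 165 in mouse 2 reached it, with medians of 0.0 and 10.2 CPM. In each mouse 1 cell held 24.9 and 24.5% of their *Retnla* fragments, so those sums also rested on few cells. *Gypc*, a membrane skeleton gene, was at 22.9 and 20.3 CPM in kept cells and 7.84 and 11.5 CPM in lost cells, higher on all 4 plates. *Il10*, the anti-inflammatory cytokine gene, reached 100 CPM in 2 kept cells, and *Apoe*, the apolipoprotein E gene, in 13. *Kitl* and *Chst11* were lower on all 4 plates, *Kitl* with 18.8 and 7.86 CPM against 25.9 and 12.9 CPM.

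*Arg1*, the arginase gene of M2 cells, was uneven within the class. It measured 320.5 and 937.6 CPM in kept cells and 63.6 and 29.1 CPM in lost cells, and by plate 92.4, 565, 889 and 976 CPM in kept cells, with plate 2 below its lost cells at 118 CPM. In mouse 1, 67.4% of the *Arg1* fragments of kept cells came from a single cell, and 25 of the 143 kept cells (17.5%) reached 100 CPM. In lost cells 7.07% in mouse 1 and 5.77% in mouse 2 reached it. *Arg1* was named here after its values were seen. Another 23 IL4-responsive genes had 8 higher and 5 lower on all 4 plates, with a median of −0.11 that became 0.14 without the dividing cells and 0.46 without the 12 *Ccr7* cells. Among them, *Ccl7* was higher (622 and 294 CPM against 227.5 and 75.2 CPM) and *Clec7a*, the β-glucan receptor gene, lower by 0.83 on the log2 scale.

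The chemokine genes *Ccl8* and *Ccl12*, whose products attract monocytes, were higher in kept cells on every plate, though neither passed the test. *Ccl8* was at 433 and 884 CPM in kept cells and at 107.5 and 186 CPM in lost cells, a log2 difference of 2.13 ± 0.239 (SE; edgeR adjusted p = 0.181). *Ccl12* was at 168 and 303 CPM against 46.4 and 33.7 CPM, a difference of 2.51 ± 0.362 (SE; edgeR adjusted p = 0.262). The signal was not shared by all members: 63 of the 143 kept cells (44.1%) reached 100 CPM of *Ccl8* and 47 (32.9%) of *Ccl12*. In lost cells the shares by mouse were 17.4 and 28.85% for *Ccl8* and 11.4 and 10.3% for *Ccl12*. The *Ccl2*, *Ccl7*, *Ccl8* and *Ccl12* genes are related in sequence, and how fragments were split between them was not tested.

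The C1q and Maf list, genes of resident-like macrophages, was the macrophage list most often higher in kept cells. Of its 14 genes, 8 were higher and 2 lower on all 4 plates, the median log2 difference was 0.91 (0.79 in mouse 1 and 1.07 in mouse 2), and DESeq2 called 8 higher and 1 lower. *C1qb*, a subunit of complement C1q, stood at 2051 and 2261 CPM in kept cells and 1201 and 1139 CPM in lost cells (log2 difference 0.88 ± 0.0937, SE; edgeR adjusted p = 0.178). *Maf* stood at 119 and 184 CPM against 46.4 and 56.8 CPM, and *C1qc* differed by 1.13 on the log2 scale; *Maf* and *C1qc* were named after their values were seen. *Ms4a7*, a membrane protein gene of the same list, went the other way, with 430.1 and 659 CPM in kept cells and 782 and 892 CPM in lost cells. The list median was 0.96 without the dividing cells and ranged from 0.55 to 1.09 over the 17 alternative settings.

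By the size of the difference among genes found in at least 25% of the cells, the leading higher genes were *Klk1b11*, *Ms4a4a*, *Gm8113*, *Ms4a6b* and *Ccl12*. *Klk1b11*, a kallikrein-family gene, was at 54.1 and 94.3 CPM in kept cells against 0.725 and 4.35 CPM in lost cells (log2 difference 5.25 ± 0.545, SE; edgeR adjusted p = 0.178). By plate it stood at 85.4, 18.1, 124 and 64.7 CPM in kept cells, and 31 of the 143 cells (21.7%) reached 100 CPM, 6 in mouse 1 and 25 in mouse 2. In mouse 1, 46.8% of its fragments in kept cells came from 1 cell. *Ms4a4a*, a tetraspan membrane protein gene of macrophages, was at 45.2 and 91.9 CPM against 4.66 and 7.80 CPM, a difference of 3.42 on the log2 scale. Of its mouse 1 fragments in kept cells, 59.1% came from 1 cell, so that the mouse 1 values of both genes rest on few members. Kallikrein and Ms4a genes, and predicted genes such as *Gm8113*, can have near copies in the genome, and fragments shared with a copy make these levels uncertain.

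The lipid-associated list was the counterpart on the lower side. Of its 17 genes, 0 were higher and 12 lower on all 4 plates, and the median log2 difference was −0.87 (−0.69 in mouse 1 and −0.85 in mouse 2), with 8 called lower and 0 higher by DESeq2. *Gpnmb*, a lysosomal glycoprotein gene, stood at 3080 and 2964 CPM in kept cells and 7475 and 6115 CPM in lost cells (log2 difference −1.16 ± 0.114, SE; edgeR adjusted p = 0.168). *Lgals3*, which encodes galectin-3, stood at 14110 and 10890 CPM against 20370 and 15050 CPM. *Lpl*, the lipoprotein lipase gene, was 0.87 lower on the log2 scale and was named after its values were seen. *Gpnmb* was still found in most members, with 136 of the 143 kept cells at or over 100 CPM, so the classes differed in its level and not in its presence. The scavenger receptor gene *Cd36*, which takes up oxidized lipids, was at 673 and 346 CPM in kept cells and 1307 and 715 CPM in lost cells. The list median ranged from −0.93 to −0.62 over the 17 alternative settings.

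Genes of cell division made up the largest median difference of any tested list. All 16 G2/M genes had a positive log2 difference, 11 on all 4 plates, with a median of 1.87 (2.32 in mouse 1 and 1.24 in mouse 2). *Top2a*, which encodes topoisomerase II, stood at 126 and 87.5 CPM in kept cells and 30.1 and 31.1 CPM in lost cells, and *Birc5*, survivin, at 132 and 53.9 CPM against 24.5 and 14.9 CPM. Against all other TNF cells in place of lost cells, the median of this list was 0.69. Without the cells that had *Mki67* or *Top2a* it was 0.23, and that of the 17 S phase genes was 0.11 in place of 0.75. The S phase median rested on plate 2: it was 0.21 without that plate, and 1.38, −0.036, 0.46 and 0.089 on plates 2 to 5. In the IL4+IL13 cells the same lists had medians of 1.95 and 1.52 between double-high and double-low cells, so the difference in dividing cells was present there as well.

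Receptors and early signalling genes for the cytokines showed smaller differences. *Tnfrsf1a*, the TNFR1 gene, was at 76.0 and 79.9 CPM in kept cells and 79.95 and 79.98 CPM in lost cells, a log2 difference of −0.036 ± 0.157 (SE) that became 0.055 with library-size scaling. *Tnfrsf1b*, the TNFR2 gene, was lower on all 4 plates, with 208 and 284 CPM against 282 and 352 CPM. Of 22 TNF receptor and signalling genes, 1 was higher and 6 lower on all 4 plates, with a median of −0.18. *Il4ra*, the shared receptor chain, was low in all classes, at 8.04 and 17.7 CPM in kept cells against 11.3 and 19.7 CPM in lost cells. *Il13ra1* was at 5.24 and 8.34 CPM against 5.08 and 8.03 CPM, and *Il2rg* differed by 0.0034 on the log2 scale. Of these receptor genes, none differed between the sums of the classes by as much as *Mrc1*. Of the 18 IL4 receptor and transcription regulators, 3 were higher and 4 lower on all 4 plates, and the 13 AP-1 and immediate early genes had 5 higher and 2 lower, with *Fos* 0.53 higher and *Atf3* 0.46 lower on the log2 scale.

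The response to TNF was present in kept cells and, for part of its genes, lower than in lost cells. Of 28 NF-κB and TNF-response genes, 0 were higher and 8 lower in kept cells on all 4 plates, with a median log2 difference of −0.24 (−0.18 in mouse 1 and −0.38 in mouse 2), and DESeq2 called 1 higher and 6 lower. The median ranged from −0.46, without plate 4, to −0.12 over the 17 alternative settings. The summed level of the list was 7114 and 6367 CPM in kept cells, 11010 and 9734 CPM in lost cells, and 4148 to 4928 CPM in IL4+IL13 cells of either class. Most of each of these sums was *Ccl9*, whose median over cells was already 2554 to 3243 CPM without TNF. The sums thus mainly follow that 1 gene. *Nfkbia*, the NF-κB inhibitor that NF-κB itself induces, showed no gap between the classes: it stood at 553 and 409 CPM in kept cells and at 512 and 416 CPM in lost cells, a log2 difference of 0.045 ± 0.194 (SE). *Clec4e*, which encodes the receptor Mincle, was lower in kept cells (328 and 298 CPM) than in lost cells (858 and 904 CPM), by 1.49 ± 0.315 on the log2 scale (SE; edgeR adjusted p = 0.392). *Ccl9*, a chemokine gene, stood at 4064 and 3606 CPM against 6971 and 5503 CPM, and *Sod2*, the mitochondrial superoxide dismutase, at 441 and 364 CPM against 608 and 586 CPM. *H2-M2*, a nonclassical MHC class I gene, had 52.8 and 66.3 CPM in kept cells and 189.9 and 179 CPM in lost cells. *Tnf* itself was at 56.8, 34.8, 1.26 and 8.07 CPM on plates 2 to 5 in kept cells and at 30.1, 45.1, 8.43 and 13.6 CPM in lost cells, higher in kept cells on 1 of 4 plates. *Nfkbia* and *Sod2* were named after their values were seen.

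*Alas1*, the first enzyme of heme synthesis, was among the leading lower genes together with *Socs2*, *Galnt12*, *B430306N03Rik* and *H2-M2*. It was at 162 and 71.5 CPM in kept cells and 412 and 321.5 CPM in lost cells, lower on all 4 plates. *Socs2*, a cytokine signalling inhibitor, differed by −2.22 on the log2 scale. The *Socs2* level in lost cells rested on few cells, as 6 of 184 in mouse 1 and 11 of 156 in mouse 2 reached 100 CPM. In kept cells 0 of 61 and 4 of 82 did. A single lost cell held 35.1% of the *Socs2* fragments in mouse 1 and 22.05% in mouse 2. *Anxa1* and *Rnase2a* were named after their values were seen, for their low p-values. *Anxa1*, which encodes the anti-inflammatory protein annexin A1, had a log2 difference of −1.16 ± 0.0607 (SE; edgeR adjusted p = 0.0836), with 1726 to 3433 CPM in kept cells and 4185 to 6796 CPM in lost cells by plate. *Rnase2a*, an eosinophil-type ribonuclease gene of the IL4 list with close copies, was higher by 1.72 ± 0.0972 (SE; edgeR adjusted p = 0.0836). Both genes had the same direction on every plate.

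MHC class II genes, which present antigen to T cells, gave a smaller median difference between the classes with TNF than without it, and the gap between these medians was not tested. Of 9 genes tested, 3 were higher and 0 lower in kept TNF cells on all 4 plates, with a median of 0.43, while between double-high and double-low IL4+IL13 cells 6 were higher and 0 lower, with a median of 1.99 (11.8% of all genes were higher and 8.56% lower there). *H2-Aa* stood at 855 and 1240 CPM in kept and 569.5 and 1456 CPM in lost TNF cells, and at 366 and 747 CPM in double-high and 12.2 and 140.0 CPM in double-low IL4+IL13 cells. In mouse 2 with TNF, the lost sum of *H2-Aa* was thus above the kept sum. The median over cells went the other way there, with 49.15 CPM in lost and 131.8 CPM in kept cells. The list median with TNF was 0.71 without the 12 *Ccr7* cells, 0.26 without the dividing cells and 0.26 without plate 4 or plate 3. *H2-Aa* was at or over 100 CPM in 47.5 and 52.4% of kept cells by mouse and in a like share of lost cells, 42.9 and 46.2%.

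The remaining lists showed smaller or mixed differences between kept and lost cells. The 10 integrated stress response genes had 2 higher and 0 lower on all 4 plates (median 0.58), with *Atf4* 0.13 and *Asns* 0.068 higher on the log2 scale. That median did not hold in both mice: it was 0.41 in mouse 1 and −0.072 in mouse 2, and 0.12 without plate 5. The 6 heat shock and dissociation genes had 0 higher and 2 lower (median −0.31), the 19 interferon response genes 2 higher and 1 lower (median 0.042), the 14 other C-type lectin genes 2 higher and 3 lower (median 0.20), and the 14 scavenger and uptake receptor genes 5 higher and 3 lower (median −0.083). Without the dividing cells the interferon, lectin and scavenger medians were −0.041, 0.032 and 0.031. The 7 monocyte markers summed to 46.4 and 48.1 CPM in kept cells and 9.76 and 19.8 CPM in lost cells. Most of the kept sums came from *Ccr2*, the monocyte chemokine receptor gene. *Ccr2* was higher on all 4 plates and reached 100 CPM in 9 kept cells. Of its fragments in kept cells, 48.2% in mouse 1 and 48.5% in mouse 2 came from 1 cell. The monocyte list median was 0.27, −0.15 without the dividing cells and −0.20 without plate 3, and the dendritic cell list median −0.18 and, without the dividing cells, −0.84. The part of such cells in the chemokine and C1q results was not tested.

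**Figure D4:**
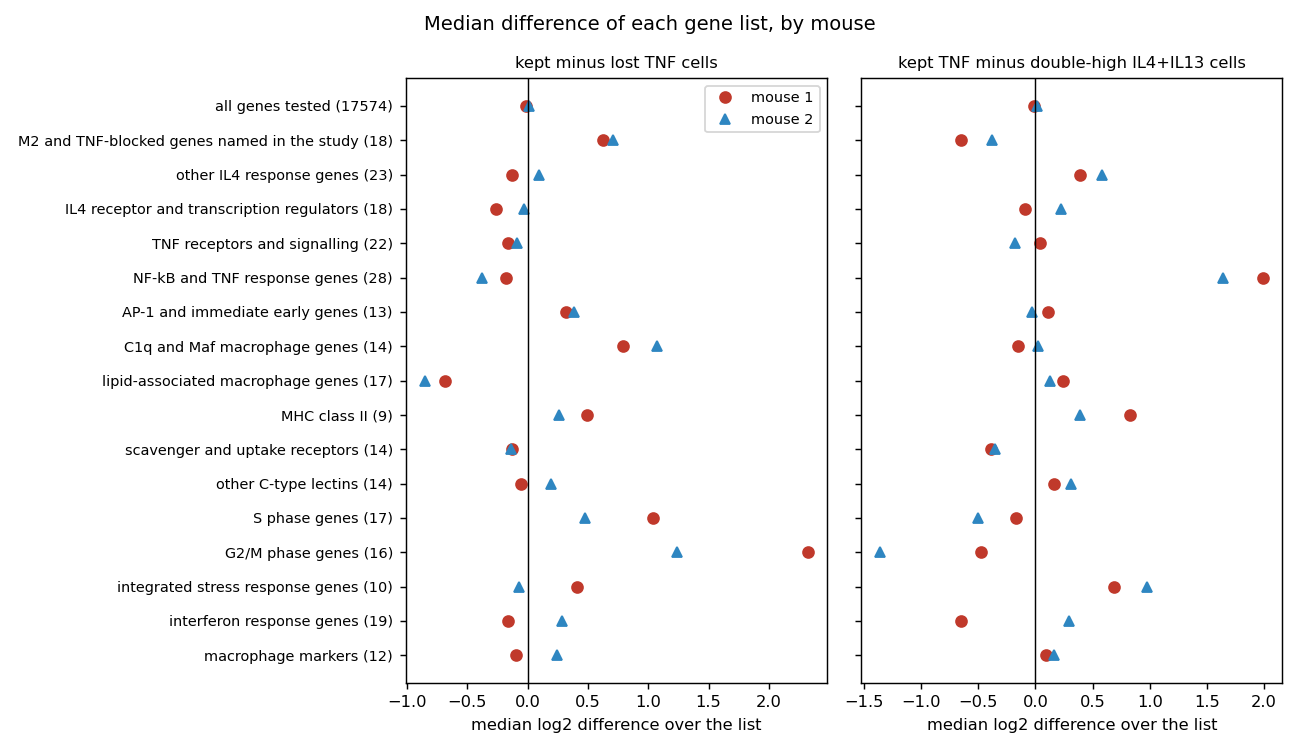
Median log2 difference over the genes of each list (x axis) in mouse 1 (red circles) and mouse 2 (blue triangles), between kept and lost TNF cells on the left and between kept TNF cells and double-high IL4+IL13 cells on the right; numbers beside the names are genes tested on the left. On the left the C1q and Maf and the G2/M lists lie above 0 and the lipid-associated list below 0 in both mice, and on the right the NF-κB and TNF-response list stands at 1.99 and 1.64.

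Cells with only 1 of the 2 lectin genes lay between the kept and the lost cells, or level with the kept cells, for the genes given here. *Mrc1* was at 852 and 983 CPM in *Clec10a*-only cells and 627 and 820 CPM in *Mgl2*-only cells, so that the *Clec10a*-only range overlapped with that of kept cells (852 to 1054 CPM), while lost cells (395 and 487 CPM) stood below every other class. *Ccl8* was at 197 and 332 CPM in *Clec10a*-only cells and at 305 and 654 CPM in *Mgl2*-only cells, within each mouse below the kept cells and above the lost cells. *Klk1b11* was at 17.6 and 17.6 CPM in *Clec10a*-only cells and 11.6 and 48.8 CPM in *Mgl2*-only cells. When kept cells were compared with all other TNF cells in place of lost cells, edgeR called 7 genes, 2 higher and 5 lower. These were *Ms4a4a* and *Ccl8* on the higher side and *Aldh1a2*, *Lgals3*, *Anxa1*, *Ccr7* and *Fth1* on the lower.

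The second question was how kept cells compared with the 334 cells that had both lectin genes without TNF. The kept cells had much more of the NF-κB and TNF-response genes, more of the chemokine genes *Ccl8* and *Ccl12*, and fewer G2/M transcripts. edgeR, on the sums of 2 mice per treatment, called 0 of 16763 genes (0%), with a smallest adjusted p of 0.0511. At an unadjusted p under 0.05, 466 genes were higher (2.78%) and 542 lower (3.23%), a split that became 375 and 695 with library sizes in place of TMM. With the mouse as a block, which pairs the sums of 1 animal, the counts were 952 and 1129, and 0 genes passed after adjustment. DESeq2 called 255 genes (1.52%), 144 higher and 111 lower. By plate, 12.3% of genes were higher and 13% lower in kept TNF cells on all 4.

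Of the 28 NF-κB and TNF-response genes, 20 were higher and 2 lower in kept TNF cells on all 4 plates, with a median log2 difference of 1.99 against 0.0038 over all genes, and DESeq2 called 15 higher and 2 lower. *Nfkbia* was at 553 and 409 CPM with TNF and 121 and 118 CPM without it (log2 difference 2.02 ± 0.228, SE; edgeR adjusted p = 0.272). *Clec4e* was at 328 and 298 CPM against 21.1 and 15.96 CPM, a difference of 4.09 ± 0.253 (SE; edgeR adjusted p = 0.0511). *H2-M2* was at 52.8 and 66.3 CPM against 0.383 and 0.327 CPM, a difference of 7.39 ± 0.374 (SE; edgeR adjusted p = 0.0511). The *H2-M2* level rested on few cells: 5 of 61 kept cells in mouse 1 and 6 of 82 in mouse 2 reached 100 CPM, and 1 cell held 58.9% of the fragments in mouse 2 and 1 cell 30.3% in mouse 1. In all 3 genes the treatments were far apart in both mice, and lost TNF cells were near the level of kept cells or above it.

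The genes with the largest differences found in at least 25% of cells were *Gpr84*, *H2-M2*, *Saa3*, *C3* and *Cxcl2* on the higher side. *C3*, the central complement component, was at 758 and 917.5 CPM in kept TNF cells and 8.68 and 38.6 CPM in double-high IL4+IL13 cells. *Saa3*, an acute-phase protein gene, was at 48.2 and 70.4 CPM against 0.230 and 2.23 CPM, and *Cxcl2*, a neutrophil chemokine gene, at 371 and 72.1 CPM against 14.4 and 6.50 CPM. On the lower side were *Id3*, *Hmga2*, *Tpst1*, *Ptar1* and *Ccl4*. *Ccl4* was at 34.6 and 26.9 CPM with TNF and 188 and 71.3 CPM without it, although it belongs to the TNF-response list. *Hmga2*, a chromatin protein gene, was at 7.01 and 2.17 CPM against 50.5 and 33.6 CPM.

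**Figure D5:**
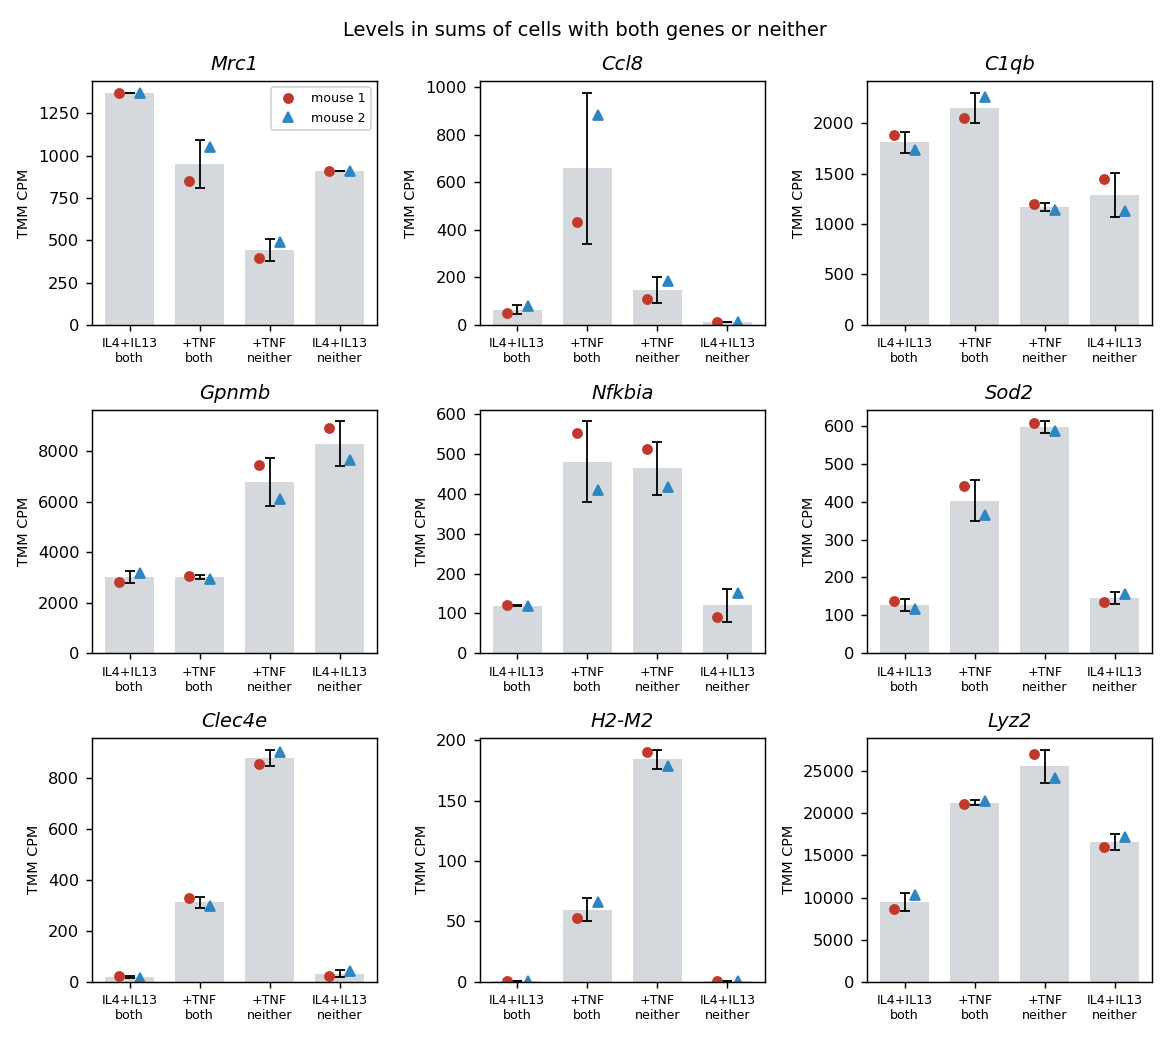
Levels of 9 genes (y axis, TMM-scaled CPM of summed cells) in cells with both lectin genes or neither, with and without TNF; bars are means, error bars the SD over the 2 mice, circles mouse 1 and triangles mouse 2. *Nfkbia*, *Sod2*, *Clec4e* and *H2-M2* are higher in both TNF classes than in either IL4+IL13 class, while *Gpnmb* follows the lectin class and lies between 2841 and 3179 CPM in both classes with both genes.

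M2 genes other than those of the rule were mixed between kept TNF cells and double-high IL4+IL13 cells. Of 17 tested, 3 were higher and 6 lower on all 4 plates, with a median of −0.50 that was 0.022 without IL4+IL13 mouse 2, and DESeq2 called 3 higher and 0 lower. *Mrc1* was at 852 and 1054 CPM against 1372 and 1373 CPM, lower on all 4 plates. Kept cells thus had less *Mrc1* than double-high cells without TNF and more than lost TNF cells. *Retnla* differed by −5.22 ± 2.10 on the log2 scale (SE), with 0.177 and 23.1 CPM against 60.7 and 815 CPM. The sums without TNF rested on few cells, as 8 of 169 in mouse 1 and 27 of 165 in mouse 2 reached 100 CPM. *Ccl8* went the other way, with 433 and 884 CPM against 50.0 and 77.6 CPM (3.37 ± 0.441, SE; edgeR adjusted p = 0.293). *C1qb* was at 2051 and 2261 CPM against 1886 and 1736 CPM, and *Gpnmb* at 3080 and 2964 CPM against 2841 and 3179 CPM, so these genes were near the level of double-high IL4+IL13 cells. For the C1q and Maf list, 4 of 14 genes were higher and 3 lower on all 4 plates (median −0.14, and 0.062 without plate 4), and for the lipid-associated list 5 of 17 were higher and 2 lower (median 0.25). Of the 10 integrated stress response genes, 6 were higher and 0 lower (median 0.85).

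G2/M genes were mostly lower in kept TNF cells than in double-high IL4+IL13 cells, and S phase genes had no stable direction. Of 16 G2/M genes, 14 were lower and 0 higher on all 4 plates (median −0.83), and of 17 S phase genes 8 were lower and 0 higher (median −0.32). The S phase median was 0.40 without IL4+IL13 mouse 1 and 0.27 without TNF mouse 2, and the G2/M median ranged from −1.59 to −0.32 over the 18 alternative settings, the ends being without mouse 1 and without mouse 2 of TNF. DESeq2 called 2 of the G2/M genes lower and 0 of the S phase genes. The summed G2/M level was 1197 and 528 CPM in kept cells, 1764 and 1375 CPM in double-high IL4+IL13 cells, and 255 and 213 CPM in lost cells.

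The third question was whether the difference between double-high and double-low cells depended on TNF. The edgeR interaction test called 0 of 17574 genes (0%), with a smallest adjusted p of 0.497, while 362 genes (2.06%) at an unadjusted p under 0.05 had a more positive and 536 (3.05%) a more negative difference with TNF. DESeq2 called 78 (0.444%). For *Mrc1* the difference was 1.11 with TNF and 0.58 without it, an interaction of 0.54 (edgeR adjusted p = 0.921). For *Ccl9*, kept cells were 0.69 lower with TNF and 0.053 higher without it (interaction −0.74; edgeR adjusted p = 0.921). *Lgals3* differed by −0.50 in both treatments and *Lpl* by −0.87 and −0.86. These estimates do not show that the differences are equal, since the test with 2 mice has few residual degrees of freedom.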

How the data were processed

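Smart-seq2 libraries of 1524 sorted cells were measured. The authors used gsnap for alignment to mm10, with splice sites from Ensembl 98, and counted uniquely mapped fragments per gene with featureCounts 1.6.3, without strand, and deposited these raw counts. Of the deposited count table's columns, 8 matched no sample label and were not used, and 4 samples had no mouse in their labels and were left out. Cells were grouped by their labels' treatment and mouse, and classes by the rule in the report. The 143 members and the 24 gene lists were chosen with earlier results of these data known.

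Counts were summed per mouse, treatment and class (8 sums of 27897219 to 87366186 fragments). *Clec10a* and *Mgl2* stayed in library sizes and were left out of the tests. Genes were tested if found in 5% of the cells of a class and passing edgeR's filterByExpr, with edgeR 4.0.16 (quasi-likelihood, TMM, R 4.3.3) and Benjamini-Hochberg adjustment at 0.05. Kept and lost cells were compared within mouse and treatment. Treatments were compared without the mouse as a block. The same 2 animals gave both treatments, and across 16763 genes the mouse difference in the 2 treatments correlated at 0.314. Named genes were the study's M2 genes and receptors, the 5 genes with the largest difference in each direction among those found in 25% of cells at an unadjusted p under 0.01 and with 1 direction on all plates, the genes with the lowest interaction p, and the 2 most abundant members of each list; any other gene is said to be chosen after its values were seen. CPM in the text are TMM-scaled sums, and per-cell CPM use the cell's gene fragments. Log2 differences by plate or mouse use CPM + 0.5. Intervals of shares are exact binomial on counts of cells and cover counting error only, not the variation between the 2 mice. Fragments without molecular identifiers are not independent molecules. P-values rest on 2 mice. The code was tested on simulated counts.

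The alternatives were DESeq2 1.42.0, library-size scaling, no gene filter, limma 3.58.1 on log2(CPM + 1) of cell means, cells thinned to 200000 fragments, cuts of 50 and 200 CPM, a per-plate filter at 3 median absolute deviations, dividing cells left out, plates as units, another comparison class, the replicate block and each plate, sum or mouse left out. Leaving out the 12 *Ccr7* cells was added after seeing the data.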

Additional observations from a re-analysis of the deposited data

Results flagged for a closer look

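*Retnla* in kept cells was at 43.7 CPM on plate 4, against 0.267, 0.0737 and 3.02 CPM on plates 2, 3 and 5. The plate 4 value lay far from the others by Dixon's criterion for 4 values, which 1 of 9 measures looked at by plate met; chance flags about 1 group in 20. The 3 kept cells with *Retnla* at or over 100 CPM were all on that plate, and in mouse 2 34.8% of the *Retnla* fragments of kept cells came from 1 cell.

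*Mamdc2*, an M2 gene that the study named, had opposite directions in the 2 treatments on every plate. Kept TNF cells were above lost TNF cells by 0.94 on the log2 scale, with 3.61 and 6.36 CPM against 1.61 and 3.86 CPM. Double-high IL4+IL13 cells were at 3.41 and 9.67 CPM against 21.6 and 36.6 CPM in double-low cells, a difference of −2.30. The interaction of 3.24 did not pass edgeR's test (adjusted p = 0.921). Of 59 genes looked at, *Mamdc2* was the only 1 with this pattern.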

How the results depend on the processing

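The counts of called genes depended on the tool and on how replicates were counted. For kept against lost TNF cells, where the main test called 0, DESeq2 called 508, plates as units 82, no gene filter 31, thinned cells 7 and all other TNF cells as the comparison 7; leaving out each plate gave 0 to 1, the 1 (*Ccr7*) without plate 3. The other settings, among them no replicate block and the 12 *Ccr7* cells left out, called 0. For kept TNF against double-high IL4+IL13 cells, DESeq2 called 255, no gene filter 1 and thinned cells 1 (*H2-M2* in both). Each sum left out gave 1 to 9 calls, 9 without IL4+IL13 mouse 2 and 3 without IL4+IL13 mouse 1, 3 and 1 without mouse 1 and mouse 2 of TNF, where the lone sum is assumed to vary like the others; the replicate block, which pairs sums of the same mouse, called 0 and changed no other call, and each plate left out gave 0. For the interaction, DESeq2 called 78 and no gene filter 2, and the rest 0. The share of kept cells was 29.1% with a cut of 50 CPM and 9.07% with 200 CPM; without each mouse it was 16.8 to 23.1%. Kept-minus-lost *Tnfrsf1a* was 0.055 with library sizes, and *Il13ra1* −0.083 with mean CPM and −0.16 with thinned cells, each against the opposite sign. Over 78 named differences, thinning put 8 past the threshold. Without mouse 1, 6 had the opposite sign, and without mouse 2, 1. The cause was not tested. Gene counts without a mouse could not be fitted for kept against lost cells, since no residual degrees of freedom remain. Depth limits genes below a few CPM, and 2 mice limit every p.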

Other observations

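Some further genes with low p-values in kept cells, chosen after their values were seen, are known for roles in uptake, macrophage biology and metabolism. *Dab2*, an endocytic adaptor gene, was at 233 and 186 CPM in kept cells and 93.5 and 60.4 CPM in lost cells. *Fcrls*, an Fc receptor-like gene of tissue macrophages, was at 34.8 and 57.1 CPM against 11.9 and 9.48 CPM. *Cbr2*, a carbonyl reductase gene, was at 115 and 95.4 CPM against 32.4 and 20.2 CPM. All 3 were higher on all 4 plates, in TNF cells and between double-high and double-low IL4+IL13 cells alike.

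*Axl*, a receptor for apoptotic cells, was higher in both treatments but by different amounts. It was at 51.4 and 88.7 CPM in kept and 24.6 and 25.2 CPM in lost TNF cells, and at 21.9 and 79.1 CPM in double-high and 0.622 and 3.63 CPM in double-low IL4+IL13 cells. The interaction was −3.26 on the log2 scale and did not pass edgeR's test (adjusted p = 0.921). Of 19 interferon response genes, 9 were higher on all 4 plates in double-high than in double-low IL4+IL13 cells (11.8% of all genes were), and 2 in kept than in lost TNF cells.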
